A study of Homo sapiens with 4 samples.

Results

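Genes of myeloid C-type lectins and siglecs were examined in MV4-11 cells, a human AML cell line of monocytic type, with and without knockdown of ANP32B. The 10 genes were taken by symbol, namely CLEC4A, CLEC5A, CLEC7A, CLEC12A, CLEC11A, CD93, CD33, SIGLEC7, SIGLEC9 and SIGLEC10, and all 10 were found among the 18885 genes of the deposited table. The control group (sh-NC) and the knockdown group (sh-ANP32B) had 2 libraries each, numbered 1 and 2 in the labels. In the labels the shRNA of the controls is given as none, but the study's methods name an sh-NC control, and if the labels hold, lentiviral infection and puromycin selection cannot be told apart from the loss of ANP32B. The methods describe stable lines selected with puromycin, and the sources used here do not say whether the libraries of a group came from separate cultures, so the p-values measure only the spread between these libraries.

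C-type lectins and siglecs are receptors with which myeloid cells read sugars. C-type lectins carry a lectin fold that in some members binds sugars with calcium, and siglecs bind sialic acid, the sugar that caps many glycans of host cells. Activating members signal through a tyrosine motif of their own or through an adaptor such as DAP12, and then through the kinase SYK. Inhibitory members carry an ITIM, a tyrosine motif that recruits the phosphatases SHP-1 and SHP-2. CD33 and CLEC12A are well known as surface antigens of AML blasts.

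Levels are given in TPM (transcript abundances), which correct reads for gene length and scale each library to about the same total. Read numbers cannot be had from TPM, so depth and counting error are unknown. For the tests, limma was run on log2(TPM + 1) for 16937 genes that reached 1 TPM in 2 or more libraries, and each log2 fold change compares knockdown with control on this log2(TPM + 1) scale, which understates changes at low levels. A gene was called at a Benjamini-Hochberg adjusted p below 0.05 over all genes tested together with a log2 fold change beyond 0.5. ANP32B itself had 358 and 364 TPM in sh-NC and 54.1 and 49.3 TPM in sh-ANP32B, which left 14.3% of the control mean. The smallest two-sided p that exact permutation of 2 and 2 libraries allows is 0.333. The limma p-values can go below it because limma assumes normal errors, and it also shares variance over genes. The RNA was from whole cultures, in which more cells of a type and more RNA per cell cannot be told apart.

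After ANP32B knockdown, 8 of the 10 genes rose, none fell, and 2 were not called. Over all genes tested, 17.9% were called higher and 10.1% were called lower. The 8 that rose were CD93, CLEC5A, CLEC4A, CLEC7A, SIGLEC9, CLEC12A, SIGLEC10 and SIGLEC7. CLEC11A and CD33 had an adjusted p below 0.05 but a log2 fold change inside the limit. For all 10, both knockdown libraries lay above both control libraries, as they did for 42.5% of all genes tested. CLEC4A and CLEC7A entered the test only through the knockdown libraries, so their difference was in part fixed by that filter. Of the 8 genes with at least 1 TPM in every library, 6 were called higher. The log2 fold changes of the 10 genes ran from 0.40 for CD33 to 1.81 for CD93, with a median of 0.75. The median of all genes tested was 0.08.

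**Figure D1:**
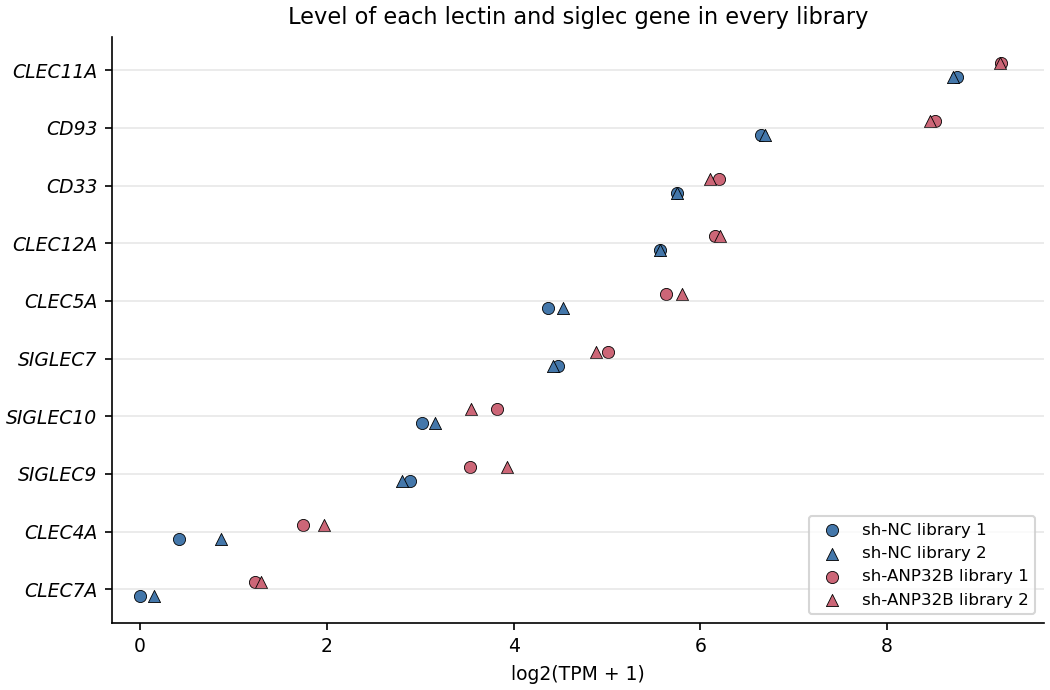
Level of the 10 genes in each of the 4 libraries, on the horizontal axis as log2(TPM + 1). Blue points are sh-NC and red points sh-ANP32B, with circles for library 1 and triangles for library 2. In each row both red points lie to the right of both blue points, and CD93 shows the widest gap among the genes of high level.

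CLEC5A, also known as MDL-1, is an activating receptor without a signalling tail of its own that pairs with DAP12. It had 19.7 and 22.1 TPM in control cells and 48.6 and 54.8 TPM after knockdown. The knockdown mean was 2.48 times the control mean, and the groups lay well apart compared with the spread within each. On the log2 scale the difference was 1.27 (SE, standard error, 0.092, limma adjusted p = 3.54e-04). In hg38, CLEC5A occupies 141927357 to 141947007 of chromosome 7 and is read from the minus strand. It shares 496 exonic bases with MGAM on the opposite strand. MGAM had 0.613 and 0.392 TPM in sh-NC and 1.84 and 1.73 TPM in sh-ANP32B and was called higher. MGAM passed the filter only through the knockdown libraries, so its difference was in part fixed by that filter. The sources used here do not state whether reads were counted by strand.

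CLEC7A, or Dectin-1, is the receptor of myeloid cells for fungal beta-glucan and signals through SYK and CARD9. It was listed at 0 and 0.106 TPM in control cells and at 1.34 and 1.46 TPM after knockdown. It was the lowest of the 10 genes in either group, and no fold is given against a group with a library listed at 0. This gave a log2 fold change of 1.19 (SE 0.238, limma adjusted p = 0.0108). Without sh-NC library 1 it was 1.12 with an adjusted p of 0.0592 from limma, so the call rested on that library. With a pseudocount of 0.1 in place of 1, the log2 fold change of CLEC7A was 3.38, so its size depends on that choice.

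CLEC4A, also named DCIR, is an inhibitory lectin with an ITIM. It had 0.337 and 0.828 TPM in sh-NC and 2.34 and 2.92 TPM in sh-ANP32B, so that it stayed a gene of low level after knockdown. Its log2 fold change came to 1.21 (SE 0.252, limma adjusted p = 0.0124). The call was lost without sh-NC library 1 (log2 fold change 0.99, limma adjusted p = 0.0531) and without sh-ANP32B library 2 (1.10, limma adjusted p = 0.0545). CLEC4A shares 893 exonic bases on the same strand with ENSG00000284697, a lncRNA gene without values here, so its reads are uncertain. With a pseudocount of 0.1 the log2 fold change of CLEC4A was 2.09.

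CLEC12A, known as CLL-1 or MICL, is the other inhibitory lectin with an ITIM among these genes. Its level was far above that of CLEC4A, with 46.6 and 46.5 TPM in sh-NC and 70.3 and 73.1 TPM in sh-ANP32B. The mean rose 1.54-fold from 46.6 ± 0.0413 TPM (SD, n = 2) to 71.7 ± 2.02 TPM (SD, n = 2). On the log2 scale the difference was 0.61 (SE 0.052, limma adjusted p = 5.59e-04). It stayed between 0.58 and 0.64 with each library left out in turn, and it was called in each of these fits.

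CD93 is a transmembrane protein of a separate branch of the C-type lectin domain family and is found on monocytes, neutrophils, early progenitors and endothelium. It had the largest log2 fold change of the 10 genes. CD93 had 99.6 and 102 TPM in control cells and 364 and 351 TPM after knockdown, with means of 101 ± 2.05 TPM and 357 ± 8.99 TPM (SD, n = 2 each). The rise was 3.54-fold, with a log2 fold change of 1.81 (SE 0.041, limma adjusted p = 4.27e-05). It lies on the minus strand of chromosome 20, from 23079360 to 23086324, and shares no exonic bases with another annotated gene. With each library left out in turn, its log2 fold change stayed between 1.79 and 1.84.

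CLEC11A, also called SCGF, is a secreted lectin known as a growth factor for haematopoietic progenitors and for bone. It was the highest of the 10 genes in either group. The sh-NC libraries had 430.5 and 416 TPM, and the sh-ANP32B libraries had 594 and 590.2 TPM. The knockdown mean was 1.40 times the control mean, and the difference of 169 TPM was the largest of the 10 genes after that of CD93 (256 TPM). The log2 fold change of 0.48 (SE 0.036, limma adjusted p = 3.77e-04) had a 95% interval from 0.39 to 0.57, which spans the fold limit. CLEC11A was thus the gene just outside that limit, and SIGLEC7, at 0.50, the gene just inside it.

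CD33 is the founding member of the CD33-related siglecs, carries an ITIM and is the target of an antibody-drug conjugate used in AML. The sh-NC libraries had 52.8 and 53.0 TPM, and the sh-ANP32B libraries had 72.6 and 67.9 TPM. Both knockdown libraries were above the controls, averaging 70.2 ± 3.27 TPM as compared with 52.9 ± 0.164 TPM (SD, n = 2 each), or 1.33 times the control mean. The log2 fold change of 0.40 (SE 0.056, limma adjusted p = 0.00300) was the lowest of the 10. Its 95% interval ran from 0.26 to 0.54, and it was not called under any of the alternatives tried.

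SIGLEC7 and SIGLEC9 are close relatives of CD33 with inhibitory motifs. SIGLEC7 had 21.2 and 20.4 TPM in sh-NC and 31.2 and 28.5 TPM in sh-ANP32B. Its log2 fold change of 0.50 (SE 0.079, limma adjusted p = 0.00469) lay on the fold limit. The call was lost without sh-NC library 2 (log2 fold change 0.48) and without sh-ANP32B library 1 (0.44). SIGLEC9 had 6.44 and 5.998 TPM in sh-NC and 10.6 and 14.2 TPM in sh-ANP32B, and the knockdown libraries differed more between themselves than those of SIGLEC7. The mean of SIGLEC9 was 2.00 times that of the controls, with a log2 fold change of 0.88 (SE 0.163, limma adjusted p = 0.00826). SIGLEC9 was called with each library left out in turn, from 0.69 to 1.08.

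SIGLEC10, an inhibitory siglec known as the receptor for CD24, had 7.13 and 7.95 TPM in sh-NC and 13.1 and 10.6 TPM in sh-ANP32B. This gave a log2 fold change of 0.59 (SE 0.141, limma adjusted p = 0.0203), the weakest support among the genes called. The call was lost without sh-NC library 1 (0.52, limma adjusted p = 0.0782) and without sh-ANP32B library 1 (0.45, limma adjusted p = 0.0883). SIGLEC10 shares 594 exonic bases with SIGLEC10-AS1 and 236 with SIGLEC10-AS2, which lie on the opposite strand and were not called. SIGLEC10-AS1 had 1.49 and 1.52 TPM in sh-NC and 0.996 and 0.608 TPM in sh-ANP32B. SIGLEC7 likewise shares 561 exonic bases with the antisense lncRNA gene ENSG00000269072, which had 1.31 and 1.20 TPM in sh-NC and 0.912 and 1.02 TPM in sh-ANP32B.

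**Figure D2:**
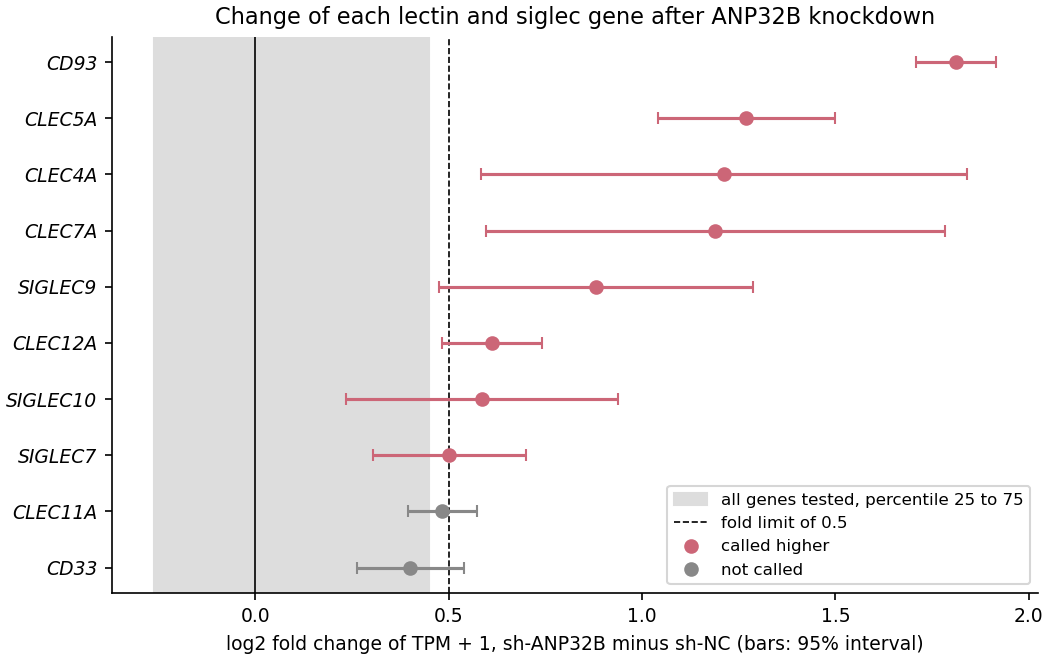
Log2 fold change of each gene, sh-ANP32B minus sh-NC, with its 95% interval from limma as bars. Red points were called higher and grey points were not, the dashed line is the fold limit of 0.5, and the grey band holds the central range of all genes tested, from -0.26 to 0.45. CD93 and CLEC5A lie wholly to the right of the limit with short bars, and the interval of CD33 reaches across it.

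The order of the 10 genes by level was much the same in both groups. In sh-NC it ran from CLEC11A, CD93, CD33 and CLEC12A to CLEC5A, SIGLEC7, SIGLEC10, SIGLEC9, CLEC4A and CLEC7A. The ranges of CLEC5A and SIGLEC7 overlapped there, and no other neighbours did. In sh-ANP32B, CLEC12A stood before CD33 and SIGLEC9 before SIGLEC10, but the ranges of each of these pairs overlapped. The TPM of the 10 genes summed to 684 and 675 in control cells and to 1208 and 1195 after knockdown. CLEC11A made up 62.9% and 61.6% of this sum in control cells and 49.2% and 49.4% after knockdown, whereas CD93 went from 14.6% and 15.2% to 30.1% and 29.4%. The share of CD33 was 7.72% and 7.85% in control cells and 6.01% and 5.69% after knockdown.

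How many of the 10 genes were called depended on the limits and on the scaling. At a log2 fold limit of 1, CD93, CLEC5A, CLEC4A and CLEC7A were called, against 6.71% of all genes. With limma's treat test against 0.5, CD93 and CLEC5A were called, against 5.61% of all genes. Median-of-ratios scaling called 6 of the 10, with 14.3% of all genes higher and 13.7% lower. Quantile normalization called 7, with 13.0% of all genes higher and 13.2% lower. Between TPM as deposited and quantile normalization, the all-gene median of the log2 fold change moved from 0.08 to -0.04. Relative to that median, the log2 fold change of CD93 was 1.73 as deposited and 1.88 after quantile normalization, and that of CD33 was 0.32 and 0.46. The same value was lower after quantile normalization for CLEC4A (1.13 and 0.93), CLEC7A (1.11 and 1.02), SIGLEC9 (0.80 and 0.76) and SIGLEC10 (0.51 and 0.47), and higher for the other genes.

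**Figure D3:**
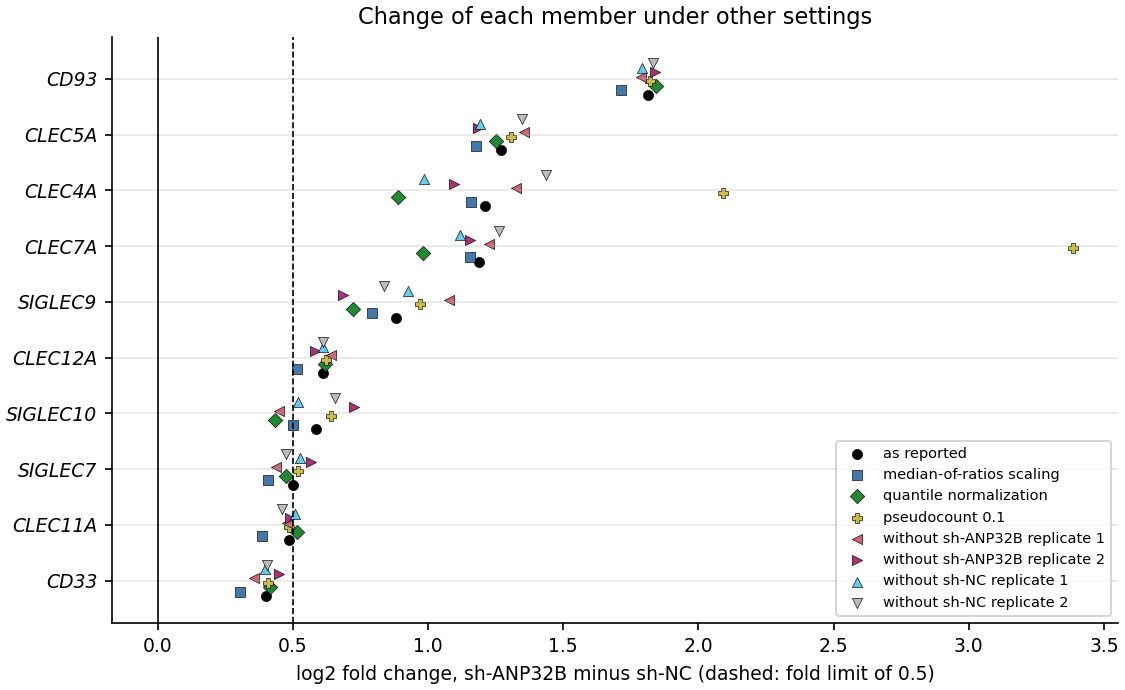
Log2 fold change of each gene as reported (black circles) and under other scalings, another pseudocount and with each library left out, with the fold limit of 0.5 as a dashed line. All points lie to the right of 0. Those of SIGLEC10, SIGLEC7 and CLEC11A fall on both sides of the limit, and the pseudocount of 0.1 moves CLEC7A and CLEC4A furthest.

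RefSeq promoter windows (GRCh38.p14), from 250 bases before to 50 bases after the start, were at hand for 7 of the 10 genes. CLEC4A, CLEC7A and CD93 had none. The windows were searched on both strands for AGGAAG, the core of sites bound by PU.1 and other ETS factors. It was present for 6 of the 7 genes, all but SIGLEC10, and in 33.6% of the 35116 windows of all genes. The longer form GAGGAAGT was in none of the 7 and in 2.59% of all windows. A match is a description of the letters and is not a measured site. The stretches before the annotated starts of the most widely known AML antigens, of the paired siglecs and of CLEC5A are shown with AGGAAG or its complement in capitals, on the strand of the gene.
CD33, plus strand, chr19:51224974-51225063: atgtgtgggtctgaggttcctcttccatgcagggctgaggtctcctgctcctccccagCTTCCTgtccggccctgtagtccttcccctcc
SIGLEC7, plus strand, chr19:51142209-51142298: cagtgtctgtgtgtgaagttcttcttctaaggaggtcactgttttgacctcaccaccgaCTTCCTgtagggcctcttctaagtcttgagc
SIGLEC9, plus strand, chr19:51124790-51124879: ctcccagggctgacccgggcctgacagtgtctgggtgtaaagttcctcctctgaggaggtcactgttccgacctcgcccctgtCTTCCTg
CLEC12A, plus strand, chr12:9971319-9971408: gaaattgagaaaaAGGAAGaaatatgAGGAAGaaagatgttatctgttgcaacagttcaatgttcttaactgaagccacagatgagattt
CLEC5A, minus strand, chr7:141947008-141947097: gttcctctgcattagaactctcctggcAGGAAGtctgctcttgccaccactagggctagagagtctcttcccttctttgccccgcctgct

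The stretches of SIGLEC7 and SIGLEC9 were alike in 55 of 66 aligned bases (83.3%) without a gap, and the aligned part of each holds CTTCCT. The knockdown means of these neighbours were 1.44 and 2.00 times their control means. The stretch of CLEC12A lies before the RefSeq start and inside the gene as GENCODE draws it, since GENCODE also lists transcripts that begin further upstream.

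Several of the genes lie together in the genome. SIGLEC9, SIGLEC7, CD33 and SIGLEC10 lie on chromosome 19 between 51124906 and 51417803. The table holds 16 genes of this interval, of which 12 are not among the 10 genes studied. Of these 12, 3 rose, none fell and 9 were not called, against 17.9% of all genes called higher. Among the 3, the pseudogene ENSG00000267990 passed the filter only through the knockdown libraries. SIGLEC17P, a siglec pseudogene between SIGLEC7 and CD33, had 14.9 and 14.1 TPM in sh-NC and 32.8 and 32.2 TPM in sh-ANP32B (log2 fold change 1.11, limma adjusted p = 3.01e-04). NKG7, a granule gene of cytotoxic lymphocytes that lies between CD33 and SIGLEC10, had 74.3 and 76.0 TPM in sh-NC and 63.1 and 58.3 TPM in sh-ANP32B and was not called. On chromosome 12, from 9951316 to 10130258, CLEC12A and CLEC7A mark the ends of an interval that also holds CLEC1B and CLEC12B. CLEC12B had 27.1 and 23.8 TPM in sh-NC and 58.2 and 50.7 TPM in sh-ANP32B (log2 fold change 1.07, limma adjusted p = 7.03e-04), and CLEC1B had a log2 fold change of 1.08 (limma adjusted p = 0.00168). CLEC12A shares 107 exonic bases with CLEC1B on the opposite strand. Both intervals, and the genes named in them, were chosen after their values were seen.

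Among the other siglecs, 8 of 11 were in the table and 6 could be tested. All 6 rose, with a median log2 fold change of 1.26, against 17.9% of all genes called higher. SIGLEC15, which pairs with DAP12, had the highest log2 fold change of this list (1.71, limma adjusted p = 0.00105), with 2.38 and 1.90 TPM in sh-NC and 8.33 and 10.2 TPM in sh-ANP32B. SIGLEC14, an activating siglec that also pairs with DAP12, had 10.8 and 10.6 TPM in sh-NC and 33.99 and 33.7 TPM in sh-ANP32B. SIGLEC5, its inhibitory counterpart, had 13.2 and 13.0 TPM in sh-NC and 32.7 and 32.6 TPM in sh-ANP32B. Transcripts of SIGLEC5 and SIGLEC14 share identical stretches of up to 789 bases, so the split of reads between them is uncertain. CD22, best known on B cells, passed the filter only through the knockdown libraries and had the least support (limma adjusted p = 0.0453). Its call was lost with the replicate block, with a pseudocount of 0.1, under both other scalings and without any 1 of the 4 libraries, whereas the other 5 were called in each of these fits. SIGLEC1, MAG and SIGLEC8 were not in the table, whose lowest mean over the libraries is 0.5 TPM.

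Of 54 other genes of the C-type lectin family, 20 were in the table and 17 could be tested. Among these, 11 rose, 1 fell and 5 were not called, against 17.9% of all genes called higher and 10.1% called lower. The median log2 fold change was 0.78, against 0.08 for all genes tested. CLEC3B, the gene of the secreted lectin tetranectin, had the highest log2 fold change (2.04, limma adjusted p = 6.91e-04), with 1.10 and 0.930 TPM in sh-NC and 6.55 and 8.11 TPM in sh-ANP32B. CD72, an inhibitory lectin of B cells and some myeloid cells, had a log2 fold change of 1.59 (limma adjusted p = 8.22e-04). ASGR1, a subunit of the asialoglycoprotein receptor, had one of 1.21 (limma adjusted p = 0.0110). Its level was low, with 0.492 and 1.03 TPM in sh-NC and 2.74 and 3.33 TPM in sh-ANP32B. With a pseudocount of 0.1 the log2 fold change of ASGR1 was 1.93, and its call was lost in the treat test against 0.5. CLEC2B, the ligand of the NK receptor NKp80, was the gene that fell, with 199.6 and 182 TPM in sh-NC and 129 and 121 TPM in sh-ANP32B (log2 fold change -0.60, limma adjusted p = 0.00112). CLEC4D and CLEC4E, further receptors for microbial products, and the mannose receptor MRC1 were not in the table.

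Adaptors of the activating receptors rose as well. TYROBP, which encodes DAP12, had 40.5 and 35.8 TPM in sh-NC and 396 and 415 TPM in sh-ANP32B, a log2 fold change of 3.38 (SE 0.068, limma adjusted p = 2.89e-05). The ratio of TYROBP to CLEC5A within a library was 2.06 and 1.62 in control cells and 8.14 and 7.57 after knockdown. FCER1G, the Fc receptor gamma chain, had 24.9 and 30.9 TPM in sh-NC and 169 and 165 TPM in sh-ANP32B (log2 fold change 2.55, limma adjusted p = 9.85e-05). HCST, or DAP10, had a log2 fold change of 1.79 (limma adjusted p = 2.54e-04). The kinase SYK was not called, with 104 and 102 TPM in sh-NC and 97.1 and 94.0 TPM in sh-ANP32B (limma adjusted p = 0.0950). CARD9 had 66.9 and 64.2 TPM against 90.3 and 88.5 TPM, inside the fold limit at 0.44. Of the 12 adaptors and kinases listed, 5 rose, none fell and 7 were not called. Over all genes tested, 17.9% were called higher and 10.1% lower. The median log2 fold change of the list was 0.42, against 0.08 for all genes tested.

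On the inhibitory side, PTPN6, the gene of SHP-1, rose from 124 and 133 TPM to 201 and 207 TPM (log2 fold change 0.66, limma adjusted p = 3.98e-04). PTPN11, the gene of SHP-2, had 74.6 and 72.7 TPM in sh-NC and 65.1 and 60.1 TPM in sh-ANP32B, a log2 fold change of -0.23 inside the fold limit. INPP5D, the gene of the lipid phosphatase SHIP-1, had a log2 fold change of -0.06 (limma adjusted p = 0.466). FGR, a Src family kinase of myeloid cells, rose with a log2 fold change of 1.88 (limma adjusted p = 1.96e-04). Of the 7 genes of this list, 3 rose, none fell and 4 were not called. This compares with 17.9% of all genes called higher and 10.1% called lower. The list had a median log2 fold change of 0.28, against 0.08 for all genes tested.

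The ligand side was followed in 25 genes that make, transfer or remove sialic acid, 18 of which were tested. Here 5 rose, 1 fell and 12 were not called, against 17.9% of all genes called higher and 10.1% called lower. The median log2 fold change was 0.13, against 0.08 for all genes tested. NEU1, the lysosomal sialidase, had 2.16 and 7.97 TPM in sh-NC and 20.3 and 16.7 TPM in sh-ANP32B, with a wide spread between the controls (log2 fold change 1.87, limma adjusted p = 0.0238). The log2 fold change of NEU1 was 1.11 without sh-NC library 1 and 2.62 without sh-NC library 2, and its call was lost without sh-ANP32B library 1 (1.73). ST3GAL5, the synthase of the ganglioside GM3, had a log2 fold change of 0.94 (limma adjusted p = 0.00182). ST6GALNAC3 was the gene called lower (-0.67, limma adjusted p = 0.0171), and this call was lost without sh-NC library 1 (-0.70), without sh-NC library 2 (-0.64) and without sh-ANP32B library 2 (-0.61). Of the siglec counter-receptors listed, CD24 was not in the table, and CD52 and SPN rose, the call of SPN being lost under median-of-ratios scaling. CD52 had 2.21 and 2.79 TPM in sh-NC and 48.6 and 36.5 TPM in sh-ANP32B.

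**Figure D4:**
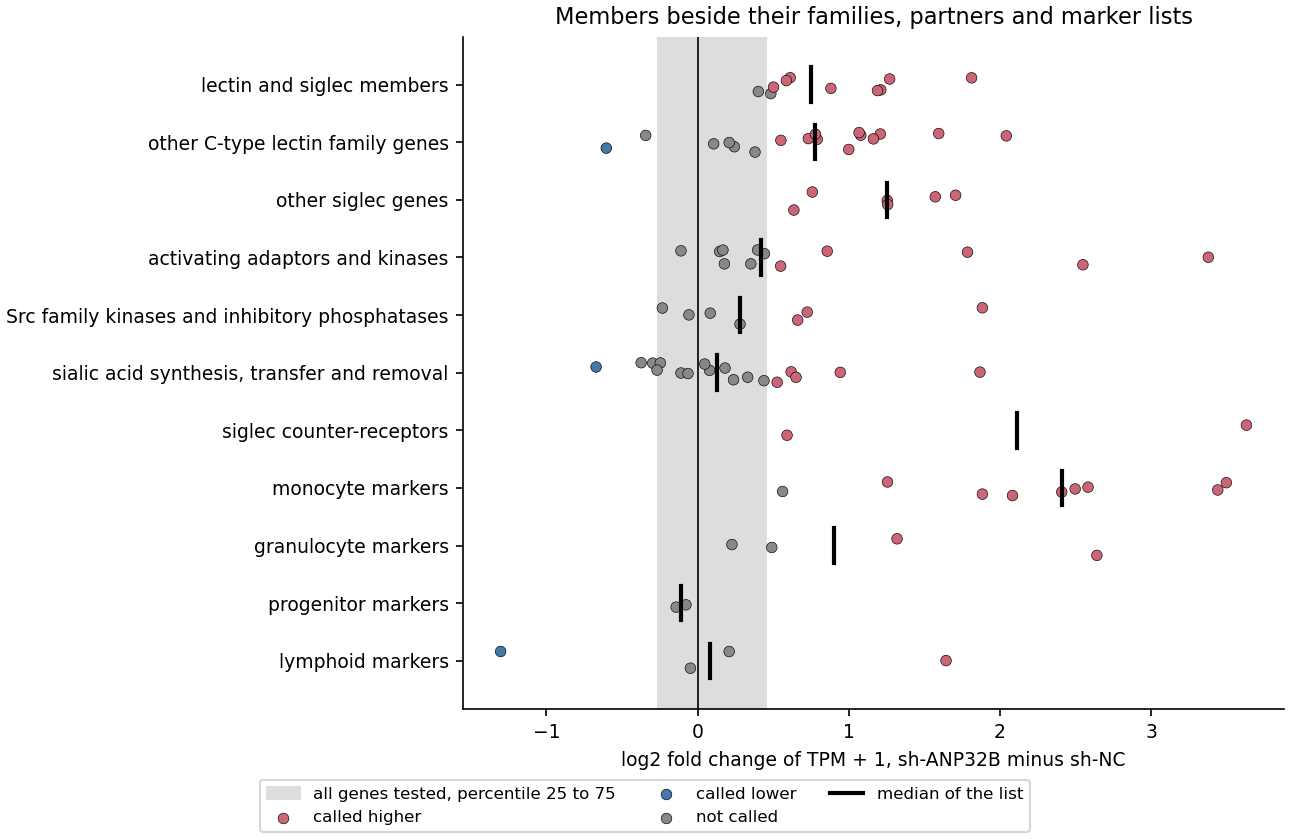
Log2 fold change of every tested gene of each list, sh-ANP32B minus sh-NC, with red for genes called higher, blue for genes called lower and grey for genes not called. Black bars mark the median of a list and the grey band the central range of all genes tested. The other siglecs lie wholly to the right of the band, and the monocyte markers, with a median of 2.41, lie furthest to the right among lists of more than 2 genes.

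Markers of monocytes moved with the lectins and siglecs. Of 12 monocyte markers, 9 were tested and 8 rose, and their TPM summed to between 525 and 531 in sh-NC and to between 5573 and 5625 in sh-ANP32B, most of it from LYZ. CD14, VCAN and CD163 were not in the table. Granulocyte markers summed to between 2512 and 2545 TPM in sh-NC and to between 3896 and 3995 TPM in sh-ANP32B, with 2 of 4 tested genes called higher. Of 9 lymphoid markers, 4 were tested, of which 1 rose and 1 fell, against 17.9% and 10.1% of all genes. The gene that rose, CD2, passed the filter only through the knockdown libraries. Lymphoid markers summed to between 57.5 and 58.4 TPM in sh-NC and to between 63.7 and 64.8 TPM in sh-ANP32B. CD3D, CD3E and MS4A1 were not in the table. Of 7 erythroid and megakaryocyte markers only ITGA2B was in the table, with 1.30 TPM at most. Of the progenitor markers, KIT and MYB were not called, and CD34 and PROM1 were not in the table. The part of these marker changes in the result for the lectins and siglecs was not tested.

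Among genes outside these lists, RAPGEF1, ZNF76 and LGALS12 were the most like CD33 in level and pattern, with a root mean square difference over the 4 libraries of 0.037 to 0.043 on the log2(TPM + 1) scale. LGALS12, the gene of galectin-12, another sugar-binding protein, had 52.4 and 53.2 TPM in sh-NC and 68.5 and 68.7 TPM in sh-ANP32B. HDAC10, IVD and PRKACA were the most like CLEC12A, with differences of 0.029 to 0.035. These likenesses are descriptions over 4 libraries.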

How the data were processed

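RNA-seq libraries of MV4-11 cells, 2 of sh-NC and 2 of sh-ANP32B, were used, with groups from the sample titles. The knockdown columns carry the mark S3, and they were assigned by their replicate number and because no other label remained for them. The mark may name a hairpin of the study, which used several against ANP32B, but no source used here says so. If both libraries carry the same hairpin, its effects on other genes cannot be told apart from the loss of ANP32B. HISAT2 (2.0.5) was the authors' aligner, with hg38 as genome, and they deposited one TPM value per gene in each library. No source names the unit, which was read from the values, since they are not whole and sum to nearly the same total in each library. The quantification tool, annotation and strand setting are not given in the sources used here. Depth and counting error are therefore unknown. The study's own test, with a log2 fold limit of 0.5, needs counts. In its place, limma (3.58.1, R 4.3.3; lmFit, then trended eBayes) was applied to log2(TPM + 1), with Benjamini-Hochberg adjustment over the 16937 genes tested, and calls needed an adjusted p below 0.05. Of 18885 identifiers, 17290 had a symbol (GENCODE 44). Shared transcript stretches were found with blastn at 98% identity over at least 100 bases.

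The genes and lists were chosen with earlier results of these data known. All 10 genes are named. From each other list, up to 3 genes with the largest rise and 3 with the largest fall among those called could be named, with TYROBP, FCER1G, SYK, CARD9, PTPN6, INPP5D, CD24, CD14 and LYZ whatever their values, and the 3 genes most like CD33 and CLEC12A. Further genes were named after their values were seen. Libraries sharing a number did not deviate together (correlation -0.0232), so no block was used. The test was tried on simulated data. Alternatives were a replicate block, a pseudocount of 0.1, 2 other filters, 2 other scalings, an unadjusted p, a fold limit of 1, the treat test and each library left out. Some results for single genes of the lists are not reported here.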

Additional observations from a re-analysis of the deposited data

How the results depend on the processing

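All 10 genes were higher under every alternative in which they were tested, and ANP32B stayed between -2.85 and -2.72 with each library left out. At a fold limit of 1, 4 of the 10 were called, and CLEC12A (0.61), SIGLEC7 (0.50), SIGLEC9 (0.88) and SIGLEC10 (0.59) were lost. The treat test against 0.5 called 2, and also lost CLEC4A (1.21) and CLEC7A (1.19). Under either of these limits, 27 of the other listed genes were called higher and 1 lower, as against 43 and 3 in the main fit. Of all genes tested, 6.71% were called higher at a fold limit of 1 and 5.61% in the treat test. Median-of-ratios scaling lost SIGLEC7 (0.41) and SIGLEC10 (0.50). Quantile normalization lost SIGLEC7 (0.48) and SIGLEC10 (0.43) and added CLEC11A (0.51). The filter of 1 TPM in every library removed CLEC4A and CLEC7A. With each library left out in turn, some calls among the 10 genes and the other lists were lost, as given above for single genes. The log2 fold changes then ran from 0.35 to 0.45 for CD33, 1.79 to 1.84 for CD93, 0.46 to 0.51 for CLEC11A, 0.58 to 0.64 for CLEC12A, 0.99 to 1.44 for CLEC4A, 1.19 to 1.35 for CLEC5A, 1.12 to 1.26 for CLEC7A, 0.45 to 0.73 for SIGLEC10, 0.44 to 0.57 for SIGLEC7 and 0.69 to 1.08 for SIGLEC9. CLEC11A was called without sh-NC library 1. With the replicate block, 8 of the 10 were called, and the block changed no call among them. The libraries share only a number (correlation -0.0232). For calls lost or gained the cause was not tested. Precision is limited by the 4 libraries, and the depth is unknown.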
